A study of Saccharomyces cerevisiae with 6 samples.

Results

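Flocculins and agglutinins are the adhesins of budding yeast, large mannoproteins that stand out from the cell wall and hold cells to one another. The genes FLO1, FLO5, FLO9, FLO10 and FLO11 encode the flocculins, and SAG1, AGA1, AGA2 and FIG2 encode proteins of mating cells, which makes 9 genes by name. Transcripts were measured on 6 Affymetrix arrays, of which 3 carried RNA from Saccharomyces cerevisiae treated with zymolyase and 3 carried RNA from untreated control cells. Zymolyase is an enzyme preparation that digests glucan of the cell wall, and the design asked how transcripts differ after it acts. Both groups were the strain labelled BY4743, given as a MATa/α diploid with the mutations his3Δ1, leu2Δ0, met15Δ0, ura3Δ0 and lys2Δ0, grown in rich YPD medium at 25 °C for 2 days. The treated group then received 30 U/ml zymolyase at 37 °C for 10 min. The temperature of the control cells during that step is not given in the labels, so enzyme and warming cannot be told apart for any value given here. The labels do not tie the replicates to separate cultures, so each p-value reflects the spread among these samples alone, which may be technical, and 3 arrays per group limit the precision.

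Of the 9 genes, 8 had a probe set assigned to that gene alone, each of them a single probe set. FLO5 was not analysed here, since the array annotation used lists no probe set for it. AGA2 did not exceed the brightness filter, which left 7 genes among the 5349 tested. The FLO9 probe set carries the suffix _s_at, by which the manufacturer marks probes that can match several transcripts, and FLO1, FLO5 and FLO9 are close relatives. The FLO9 signal is therefore uncertain as a measure of FLO9 alone. All signals are MAS5 values in linear intensity units, scaled per array. Signals of different genes are called bright, dim or near background, and are not read as a ranking of transcript levels. MAS5 signals give relative transcript levels in a whole culture, so more cells with a transcript and more transcript per cell cannot be told apart.

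Flocculins bind mannose chains on neighbouring cells (FLO1, FLO5, FLO9 and FLO10) or mediate adhesion to surfaces, filamentous growth and biofilm formation (FLO11). Each is held in the wall through a glycosylphosphatidylinositol (GPI) anchor remnant linked to glucan. The laboratory strain S288C, from which BY4743 descends, carries a nonsense mutation in FLO8, the activator of FLO1 and FLO11, and does not flocculate. Agglutinins act in mating: Sag1 on α cells binds Aga2 on a cells, and Aga2 is tied to the wall through Aga1. Fig2 is a relative of Aga1 that is induced by mating pheromone.

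All 7 tested adhesin genes had higher signals with zymolyase. This count stands against a broad shift, since 71.5% of the 5394 probe sets tested passed the limma test at an adjusted p of 0.05, with 32.6% higher and 38.9% lower. The median log2 fold change of the 7 genes was 0.90, from 0.36 for FLO9 to 1.63 for FLO11, against a median of -0.08 over all probe sets. The zymolyase and control ranges did not overlap for any of the 7 genes. The same non-overlap, in either direction, was found for 73.3% of all probe sets tested, and non-overlap with higher zymolyase signals for 33.4%.

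**Figure D1:**
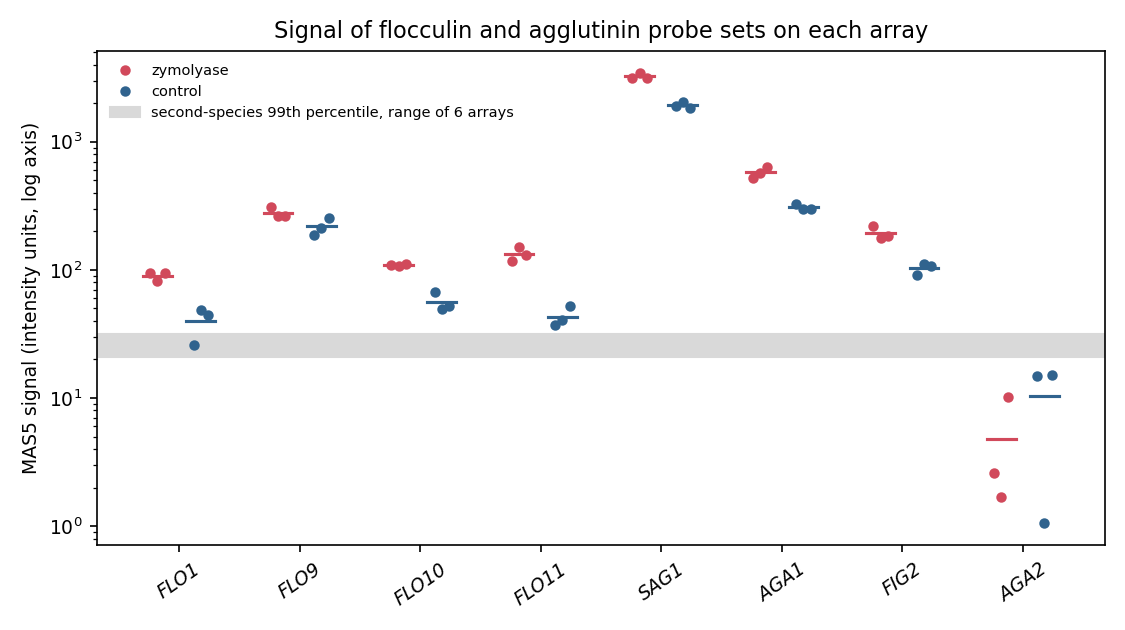
MAS5 signal (intensity units, log axis) of the 8 genes with a probe set, 1 point per array and a bar at the group mean, with zymolyase arrays left of control arrays for each gene. The grey band spans the 99th percentile of the second-species probe sets on the 6 arrays, from 21.0 to 31.4. For 7 genes the zymolyase points lie above the control points, while AGA2 lies below the band on every array.

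FLO11, the flocculin of filaments and biofilms, had the largest log2 fold change of the 7 genes. Its signals were 116, 151 and 132 on the zymolyase arrays, against 36.9, 40.6 and 52.4 on the control arrays. Every zymolyase array was at least 2.22 times the highest control array. The log2 fold change was 1.63 ± 0.20 (SE), a 3.09-fold difference with a 95% interval from 2.30 to 4.15 (limma, adjusted p = 8.5e-06). This change lay at the 98.7th percentile of all tested probe sets. In the control the probe set was dim, at 1.55 times the second-species 99th percentile on its lowest array. With 50 added to every signal, which shrinks the folds of dim probe sets, its log2 fold change was 0.97.

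FLO1, the main mannose-binding flocculin, was the other gene with more than a 2-fold difference. It had signals of 94.9, 82.1 and 94.2 with zymolyase, against 26.1, 48.4 and 44.8 in the control. The zymolyase arrays agreed closely, whereas control replicate 1 lay well below the other control arrays and only 1.10 times above its background percentile. The log2 fold change was 1.23 ± 0.25 (SE), or 2.35-fold with a 95% interval from 1.60 to 3.44 (adjusted p = 0.00075). Without control replicate 1 it was 0.95, and with 50 added to every signal it was 0.65.

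FLO10, a flocculin related to FLO1 in its mannose-binding part, had signals of 110, 106 and 111 with zymolyase, against 67.7, 49.2 and 52.5 in the control. The zymolyase arrays were nearly equal and all lay above the brightest control array. The log2 fold change was 0.96 ± 0.18 (SE; 1.95-fold, 95% interval 1.48 to 2.56, adjusted p = 0.00039), and it was 0.58 with 50 added to every signal. The FLO9 probe set gave 309.9, 263 and 264 with zymolyase, against 188, 214 and 254 in the control. The groups were narrowly separate, with the lowest zymolyase array 1.03 times the highest control array. The log2 fold change of FLO9 was 0.36 ± 0.12 (SE; 1.28-fold, 95% interval 1.07 to 1.54, adjusted p = 0.019). This call was lost without zymolyase replicate 1 (adjusted p = 0.082), without control replicate 1 (0.089) and with the gene length trend removed (0.87).

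Among the mating adhesins, SAG1, the α-agglutinin, was bright on every array. Its signals were 3133, 3425 and 3132 with zymolyase, against 1905, 2037 and 1836 in the control. The groups were far apart relative to their spread, and the log2 fold change of 0.75 ± 0.06 (SE) was the most precise of the 7 genes (1.68-fold, 95% interval 1.53 to 1.83, adjusted p = 1.7e-07). The lowest of the 6 arrays for SAG1 was 80.0 times the second-species 99th percentile.

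AGA1, the wall anchor of the a-agglutinin, had signals of 523, 573 and 632 with zymolyase, against 325, 299 and 298 in the control. Its log2 fold change was 0.90 ± 0.09 (SE; 1.87-fold, 95% interval 1.64 to 2.13, adjusted p = 1.0e-06). FIG2 had signals of 220, 177 and 185 with zymolyase, against 91.7, 111 and 108 in the control. All zymolyase arrays were at least 1.59 times the brightest control array for FIG2, as they were at least 1.61 times for AGA1. The log2 fold change of FIG2 was 0.90 ± 0.14 (SE; 1.87-fold, 95% interval 1.52 to 2.30, adjusted p = 6.1e-05).

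AGA2, the binding subunit that Aga1 anchors, was not well above background in either group. Its signals were 2.62, 1.69 and 10.2 with zymolyase, against 14.8, 1.07 and 15.1 in the control. These ranges overlapped, every array lay under its second-species 99th percentile, and no fold is given. With no filter, AGA2 had an adjusted p of 0.59 in the limma fit. AGA1 was measured above background, at 13.1 times that percentile or more, on the same arrays on which its partner was not.

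**Figure D2:**
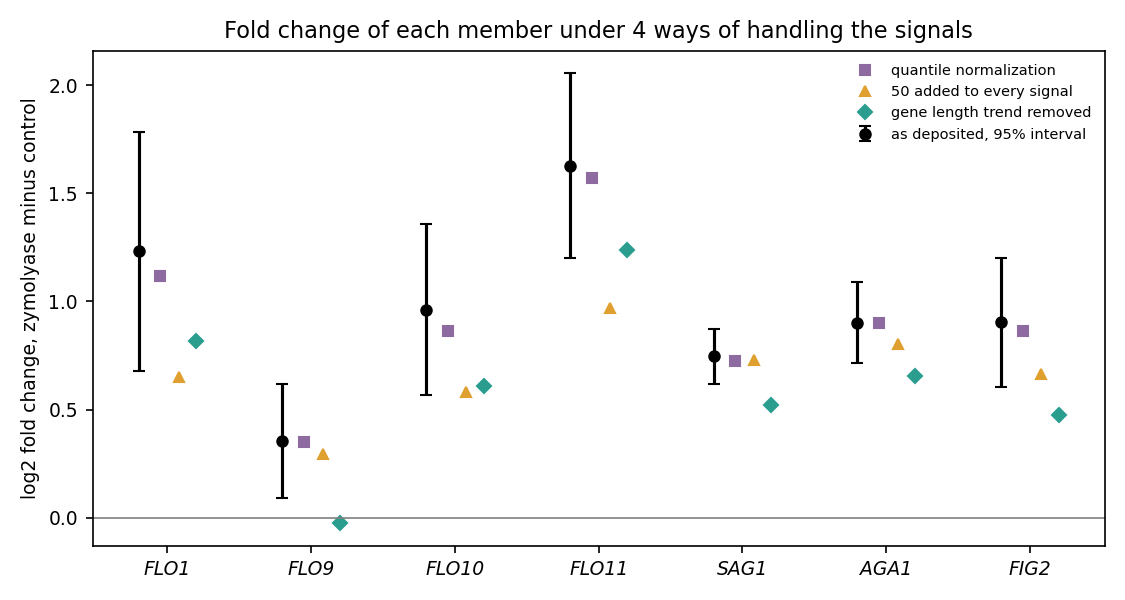
Log2 fold change (zymolyase minus control) of the 7 tested genes. Black points are the values from the deposited signals with 95% intervals, and coloured markers show quantile normalization, 50 added to every signal, and removal of the gene length trend. FLO11 stays between 0.97 and 1.63 under these 4 ways of handling the signals, whereas FLO9 is at -0.024 once the length trend is removed.

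The adhesin genes are long, and fold changes on these arrays moved with gene length. The 5 tested genes FLO1, FLO9, FLO10, FLO11 and FIG2 have coding lengths between 3510 and 4830 nt, AGA1 has 2178 nt and SAG1 has 1953 nt. Over all 392 probe sets for genes of 3000 to under 5000 nt the median log2 fold change was 0.29, and 55.4% of them passed as higher. The median was -0.38 for the 613 probe sets of genes under 500 nt. Within the class of 3000 to under 5000 nt, FLO11 lay at the 98.0th percentile, FLO1 at the 89.5th, FLO10 at the 82.4th, FIG2 at the 81.4th and FLO9 at the 53.6th. SAG1 lay at the 83.2nd percentile of the 2125 probe sets of 1000 to under 2000 nt, and AGA1 at the 82.1st percentile of the 766 of 2000 to under 3000 nt.

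Removing the length trend lowered the log2 fold change of all 7 genes, as their lengths entail, and 6 still passed as higher. It was then 1.24 for FLO11, 0.82 for FLO1, 0.66 for AGA1, 0.61 for FLO10, 0.52 for SAG1 and 0.48 for FIG2, with adjusted p-values between 5.8e-06 and 0.013. FLO9 was at -0.024 (adjusted p = 0.87). The ratio of the 3' to the 5' control probe set of ACT1, a measure of RNA integrity under labelling from the 3' end, was 2.44, 2.54 and 2.33 on the zymolyase arrays, against 2.18, 2.06 and 1.86 on the control arrays. The 3' to 5' ratio for the 25S ribosomal RNA was 3.21, 3.40 and 6.02 on the zymolyase arrays, against 1.20, 1.36 and 1.48 on the control arrays. How far that ratio reflects the integrity of messenger RNA was not tested. All 3 zymolyase arrays lay above all control arrays in both ratios, and the part of RNA integrity in the adhesin signals was not tested.

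**Figure D3:**
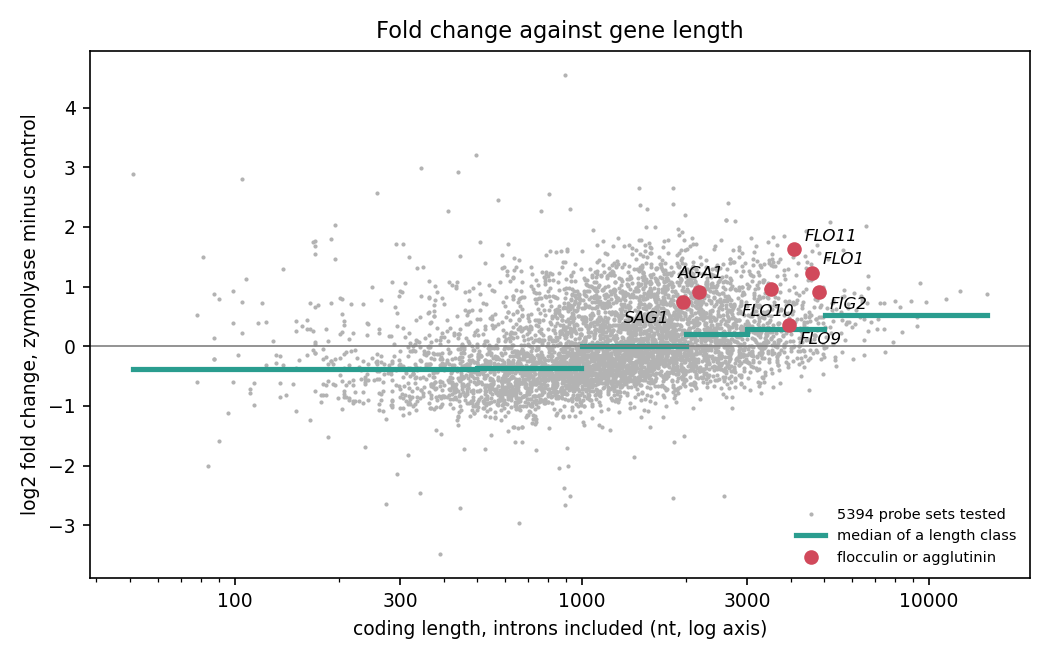
Log2 fold change (zymolyase minus control) of 5394 probe sets against coding length (nt, log axis), in grey, with the 7 adhesin genes in red and the median of each length class as a green line. The green lines climb from -0.38 for genes under 500 nt to 0.52 for genes of 5000 nt or more. FLO11 and FLO1 lie far above the line of their class, and FLO9 lies close to it.

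SAG1 and AGA2 are markers of opposite mating types, and other mating-type genes were set beside them. In yeast, α cells express the α-specific genes, a cells express the a-specific genes, and a/α diploids express neither set and repress haploid-specific genes. The labels give the strain as a/α. The pheromone genes MF(ALPHA)1 and MF(ALPHA)2 had signals of 13569 ± 1445 and 3658 ± 151 with zymolyase (SD, n = 3), against 13248 ± 1346 and 3648 ± 47.8 in the control. STE3, the receptor of α cells, had 2732 ± 28.1 with zymolyase and 3035 ± 89.7 in the control. Of the 7 a-specific genes, AGA2, MFA2 and ASG7 were under the second-species 99th percentile on every array. BAR1 was under it on all zymolyase arrays and on 2 control arrays. MFA1 exceeded it on 1 zymolyase array and on all 3 control arrays. STE6 and STE2, the exporter and the receptor of mating pheromone in a cells, exceeded it on all 6 arrays while staying dim. STE2 had 34.9 ± 7.36 with zymolyase and 48.4 ± 11.1 in the control, and STE6 had 48.7 ± 5.69 with zymolyase and 58.7 ± 8.49 in the control. HO, the haploid mating-type switching endonuclease, had 1033 ± 100.7 with zymolyase and 1214 ± 65.2 in the control. These levels go against the labelled a/α type in both groups. The genes URA3 and LEU2, given as deleted, were also bright, with 1783 ± 124 and 813 ± 57.9 with zymolyase and 1802 ± 66.8 and 671 ± 38.5 in the control, so the strain is named here only by its label.

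SAG1 was higher with zymolyase, and in the deposited signals the other α-specific genes had smaller fold changes. AFB1, which encodes an a-pheromone blocker, had a log2 fold change of 0.27 ± 0.06 (SE, adjusted p = 0.0013), and STE3 of -0.15 ± 0.05 (adjusted p = 0.015; 0.060 without control replicate 3). MF(ALPHA)1 and MF(ALPHA)2 had values of 0.03 ± 0.09 and 0.0032 ± 0.05 and missed the threshold (adjusted p = 0.74 and 0.96). All 3 of AFB1, MF(ALPHA)1 and MF(ALPHA)2 are short genes, and with the length trend removed they passed as higher, at 0.57, 0.38 and 0.34, beside 0.52 for SAG1. The differences between SAG1 and these genes were not tested. Of the 5 a-specific genes that exceeded the filter, 0 passed in the limma fit and 0 had an unadjusted p under 0.05.

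**Figure D4:**
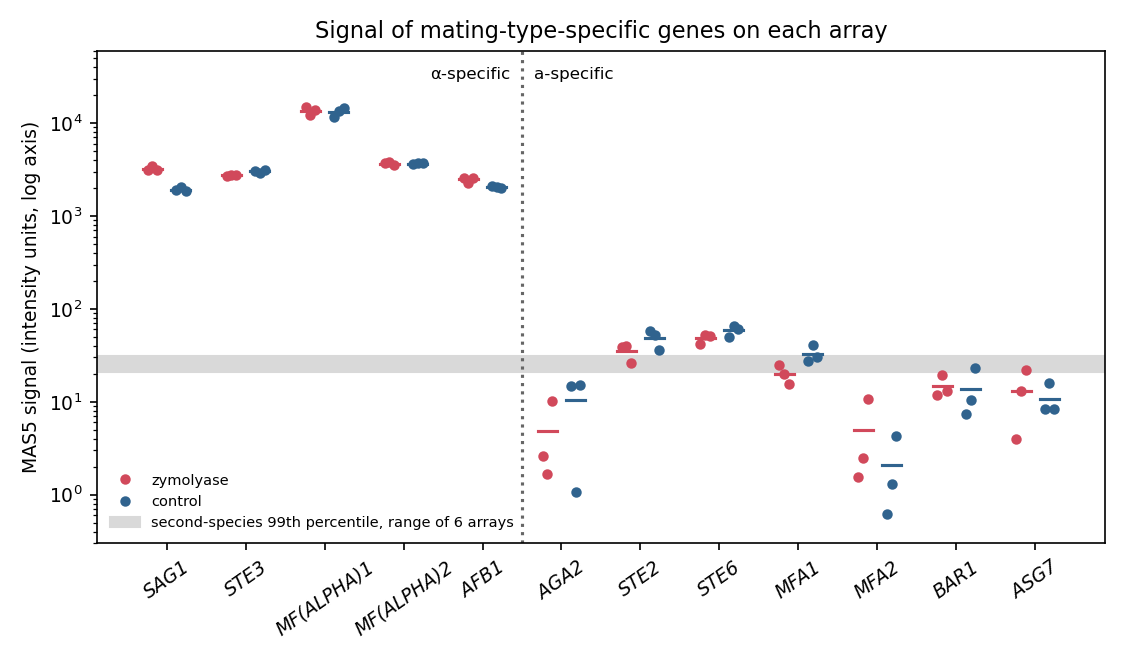
MAS5 signal (intensity units, log axis) of the 5 α-specific and 7 a-specific genes, 1 point per array, bars at group means, zymolyase left of control, with the grey band as the range of the second-species 99th percentile. SAG1 and the other α-specific genes lie at 1836 or above on every array, and the a-specific genes lie at 66.2 or below, with AGA2 under the band.

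Genes induced by mating pheromone were examined next, since AGA1 and FIG2 belong to that response. Among 19 others, 2 passed as higher and 6 as lower, 11 did not pass, and the median log2 fold change was -0.13. Over all probe sets the shares were 32.6% higher and 38.9% lower. KAR4, a transcription factor for nuclear fusion genes, fell to 193 ± 11.6 with zymolyase, against 464 ± 29.8 in the control (log2 fold change -1.27 ± 0.09 SE, adjusted p = 7.0e-08). KAR5, which acts in the fusion of nuclear membranes, had a log2 fold change of -1.06 ± 0.10 and KAR3, a kinesin motor, of -0.88 ± 0.10. FIG1, a membrane protein of mating cells, was not well above background on any zymolyase array and was at least 1.54-fold lower (adjusted p = 0.022, and between 0.0021 and 0.082 over 15 alternatives). The 2 rises were FUS3, the MAP kinase of the pheromone pathway (0.83 ± 0.11), and GPA1, its G protein subunit (0.31 ± 0.09). Without control replicate 1, the number of falls was 3. AGA1 and FIG2 rose on arrays on which KAR4 and KAR5 fell, and these 4 genes kept their calls under all 15 alternatives. Most of these alternatives could not have reversed a direction, since the group ranges of the 4 genes do not overlap.

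Among 9 haploid-specific genes, 3 passed as higher and 4 as lower, near the shares of 32.6% and 38.9% over all probe sets. The falls were 2 without zymolyase replicate 1 or without control replicate 1. NEJ1, a regulator of DNA end joining, fell (log2 fold change -0.75 ± 0.09 SE, adjusted p = 8.9e-06), while STE5, the scaffold of the pheromone kinases, rose (0.40 ± 0.12, adjusted p = 0.012). STE5 lost its call under 4 of 15 alternatives. These were no intensity trend, the length trend removed (adjusted p = 0.47), and control replicate 2 or control replicate 3 left out.

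Most regulators of flocculin genes had higher signals. Among 22 such genes, 15 passed as higher, 4 passed as lower and 3 did not pass, where 32.6% of all probe sets passed as higher and 38.9% as lower. The median log2 fold change was 0.53, and with the length trend removed 13 rose and 3 fell. TUP1 and CYC8 encode the general corepressor that acts on FLO1 and FLO11. TUP1 had signals of 2136, 2011 and 2012 with zymolyase, against 664, 604 and 611 in the control. Its log2 fold change was 1.71 ± 0.06 (SE, adjusted p = 3.6e-10), and 1.47 with the length trend removed. CYC8 had a log2 fold change of 0.86 ± 0.09 (adjusted p = 2.3e-06). SFL1 and SOK2, which encode repressors, rose as well, by 1.15 ± 0.14 and 1.22 ± 0.10.

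TEC1, which with Ste12 activates genes of filamentous growth, had signals of 723, 723 and 722 with zymolyase, against 285, 316 and 292 in the control (log2 fold change 1.28 ± 0.07 SE, adjusted p = 1.0e-08). MGA1, a factor of the same family as Sfl1, had a log2 fold change of 1.70 ± 0.45 (adjusted p = 0.0040), but it was dim, with 1 control array under background, and the value was 0.61 with 50 added to every signal. PHD1 (0.93 ± 0.07), ASH1 (1.22 ± 0.06) and RIM101 (0.88 ± 0.10) were higher too. FLO8, which the RefSeq table lists as a pseudogene, had signals of 205, 205 and 223 with zymolyase, against 155, 145 and 156 in the control. Its log2 fold change of 0.48 ± 0.11 (adjusted p = 0.0014) was 0.21 with the length trend removed and then did not pass (0.099). MSS11, the partner of Flo8, and STE12 had values of 0.23 ± 0.13 and 0.12 ± 0.08 and missed the threshold (adjusted p = 0.13 and 0.17), as did MSN1 at -0.07 ± 0.10 (0.51).

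The falls were NRG1 and NRG2, glucose-dependent repressors (-0.47 ± 0.08 and -0.60 ± 0.08), GCN4, the activator of amino acid synthesis (-0.42 ± 0.07), and DIG2 (-0.81 ± 0.13), an inhibitor of Ste12. The related inhibitor gene DIG1 went the other way (1.24 ± 0.07, adjusted p = 5.9e-09), and DIG1 and DIG2 kept their calls under all 15 alternatives. NRG1 did not pass with the length trend removed (adjusted p = 0.060).

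**Figure D5:**
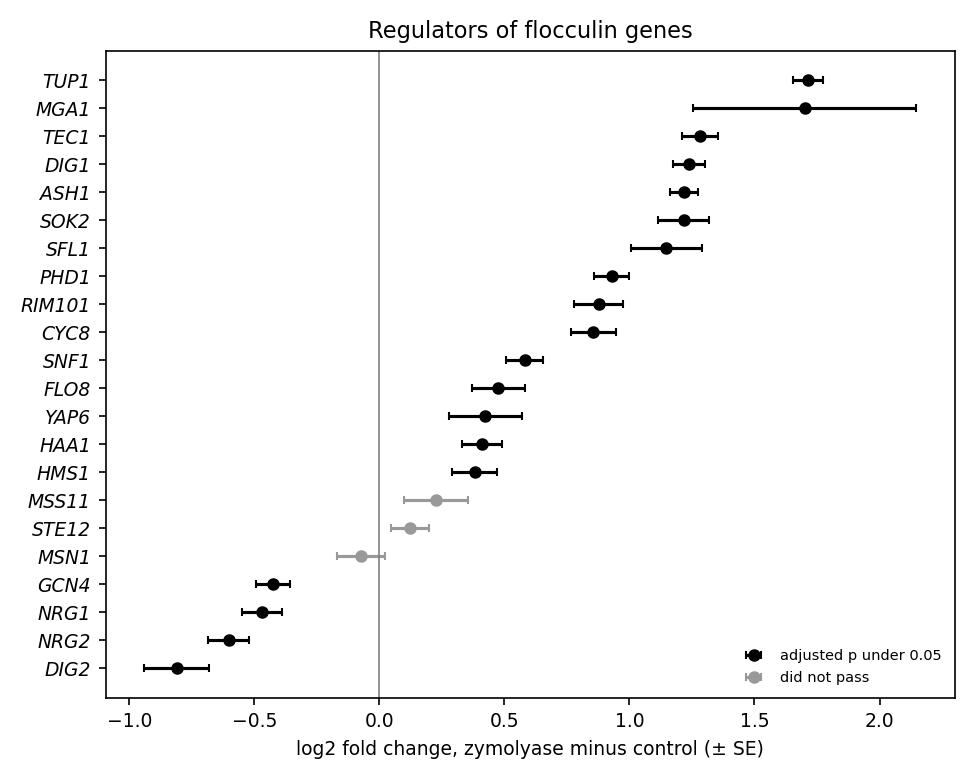
Log2 fold change (zymolyase minus control, ± SE) of 22 regulators of flocculin genes, in black where the adjusted p was under 0.05 and in grey otherwise. TUP1 and MGA1 are at the top at 1.71 and 1.70, and DIG2 is at the bottom at -0.81.

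Genes listed for GPI anchor attachment and surface display, wall glucan assembly among them, passed in about the shares of all probe sets. Among 11, 4 passed as higher and 5 as lower, against 32.6% higher and 38.9% lower over all probe sets, and the median log2 fold change was 0.05. KRE1, a wall protein of 1,6-β-glucan assembly, rose to 1988 ± 149 with zymolyase, against 838 ± 37.5 in the control (log2 fold change 1.25 ± 0.07 SE, adjusted p = 6.1e-09). GPI16 and GPI8, subunits of the same GPI transamidase, moved in opposite directions, at 1.005 ± 0.06 and -0.66 ± 0.08, under all 15 alternatives. YPS1, a protease that is itself GPI-anchored, rose by 0.73 ± 0.07.

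Short open reading frames related to FLO genes gave little signal. Of 12 names, 10 separate genes were found in the RefSeq table, 8 had a probe set and 3 exceeded the filter. None of the 3 passed in the limma fit, and 0 had an unadjusted p under 0.05. FLO11 lies next to YIR018C-A and YAP5, and both rose as well, at 1.30 ± 0.27 and 0.72 ± 0.15 (adjusted p = 0.00087 and 0.00078), whereas MRS1 on its other side fell (-0.44 ± 0.08). YIR018C-A was dim, with a mean signal of 23.0 in the control. Rising neighbours were not particular to FLO11: ABP1 near FIG2 was at 1.79 ± 0.05, SWH1 near FLO1 at 1.35 ± 0.11 and BDH2 near FLO9 at 1.34 ± 0.06. FLO10 stood between genes that did not rise, with SKG1 at -0.56 ± 0.10, SIR1 at -0.49 ± 0.14 and YKR104W at -0.63 ± 0.20. Over all 28 tested genes among the nearest 2 on each side of the 9 adhesin genes, 9 were higher and 12 lower past the threshold, 7 missed it, and the median was -0.24. These counts are near the shares of 32.6% higher and 38.9% lower over all probe sets. These flanking genes were picked by position after the fold changes of the adhesin genes were known.

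Genes whose log2 signals followed those of SAG1, AGA1 and FLO9 over the 6 arrays are given as a description. These were the adhesin probe sets with the highest mean signal, which chose them and says nothing of their transcript levels. For SAG1 they were APE2, CIS3 and HAL1, each with Pearson's r of 0.998 or more, and CIS3 encodes a wall protein of the PIR family. For AGA1 they were HMS1, ZTA1 and SIT4, the catalytic subunit of a protein phosphatase. The arrays form 2 separate groups, so such values mostly record a shared difference between groups: 1002 genes had r above 0.95 with SAG1 and 815 with AGA1. FLO9, whose groups nearly touch, had 12 such genes, led by YJL107C, YNL046W and YPT11. YJL107C was near background, with a mean signal of 23.9 with zymolyase and 12.8 in the control.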

How the data were processed

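The authors deposited intensity values, 1 linear MAS5 signal per probe set and array (version not given in the sources used here), per the submitters' processing notes. The labels give an input of 500 ng RNA to a 3' in vitro transcription labelling kit. The authors' scaling left a mean, after trimming 2% at each end, between 500.41 and 500.43 on each array, and it was kept. Of 10928 probe sets, 5498 had 1 S. cerevisiae gene by the platform annotation and the RefSeq table (assembly R64), which also gave coding lengths. The 1747 annotated to genes absent from that table were taken as the array's second species. Probe sets with a mean signal above 10.1 were tested (5394); this cutoff is the 90th percentile of the mean signals of the second species.

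A linear model (limma 3.58.1 under R 4.3.3, eBayes with intensity trend) gave zymolyase minus control on log2 signals, with Benjamini-Hochberg adjustment over all 5394. Not well above background means that no array of the group exceeded its second-species 99th percentile. For such a group a bound sets each dim array to that percentile or its own signal, whichever is higher. The fitting code was tested on simulated data.

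The members, lists and alternatives were chosen with earlier results of these data known. The text names every member, any flocculin regulator, the mating-type checks, up to 4 genes of each other list by size of change among those that passed, and genes singled out after their values were seen (GPA1, ASG7, the flanking genes). Alternatives were an added 50, quantile normalization, median centring, no filter, a stricter filter at the 99th percentile, eBayes without the trend, a block for the replicate number, removal of the length trend by local regression (span 0.5, degree 1), omission of _s_at and _x_at probe sets, and each array left out. Array correlations of log2 signal were 0.985 to 0.987 within and 0.938 to 0.947 between groups. No 2 arrays held identical values.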

Additional observations from a re-analysis of the deposited data

How the results depend on the processing

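FLO1, FLO10, FLO11, SAG1, AGA1 and FIG2 kept their calls under all 15 alternatives. Log2 fold changes lay between 0.65 and 1.40 for FLO1, 0.58 and 1.10 for FLO10, and 0.97 and 1.77 for FLO11. They lay between 0.52 and 0.79 for SAG1, 0.66 and 0.97 for AGA1, and 0.48 and 0.97 for FIG2. With group ranges that do not overlap, only quantile normalization, median centring and removal of the length trend could have reversed a direction, and none did. FLO9 changed sign with the gene length trend removed (-0.024, adjusted p = 0.87), could not be fitted without _s_at and _x_at probe sets, and ranged from 0.25 to 0.47 with single arrays left out. The alternatives called 6 or 7 of these 7 genes higher and 0 lower. With the length trend removed, 4 α-specific genes were higher instead of 2, and 1 a-specific gene, STE6, was lower. Without an intensity trend 1 a-specific gene, MFA1, was lower. With single arrays left out, falls numbered 3 to 6 among pheromone-induced genes, 2 to 5 among haploid-specific genes and 0 to 1 among α-specific genes. The causes were not tested, except that fewer arrays entered the last fits. Same-numbered samples did not deviate together (correlations of 0.05, 0.07 and 0.02, and not every sample correlated best with its own number), so the numbers were not taken as pairs. With the replicate block 1789 probe sets were higher and 2144 lower, against 1759 and 2098 without it, and all 7 adhesin genes passed. Dim probe sets (FLO1, FLO10 and FLO11 in the control) limit how well fold sizes are known.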
